A study of Mus musculus with 6 samples.

Results

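The platelet-derived growth factor (PDGF) family was described in whole mouse lung at the level of genes and of single transcripts. Its 6 genes are the receptors *Pdgfra* and *Pdgfrb* and the ligands *Pdgfa*, *Pdgfb*, *Pdgfc* and *Pdgfd*. They were picked out of the 22158 gene symbols of the deposited transcript table, and 23 of its 149728 transcripts are Ensembl transcripts of these genes. The family was selected on the difference between PM2.5 and saline lungs in the transcripts of *Pdgfra*, so its values for that contrast are a description and carry no test. Lungs came from BALB/c mice, an inbred strain, with a labelled age of 9 weeks. The PM2.5 group received fine airborne particulate matter through the trachea at 5 mg per kg of body weight in 50 µl of saline, weekly for 8 weeks, and the saline group received the vehicle alone in the same volume. Each group has 3 libraries, numbered 2, 3 and 4, and nothing in the labels ties a library to a separate animal, so p-values measure only the spread between these libraries, which may be partly technical. All mice were anesthetised for the instillation, and the labels name no genotype or other treatment.

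PDGF ligands are secreted dimers that bind the extracellular part of receptor tyrosine kinases, which then dimerise and phosphorylate each other. The alpha receptor binds the A, B and C chains and the beta receptor binds the B and D chains. In the lung the alpha receptor marks alveolar fibroblasts, including the precursors of alveolar myofibroblasts, and the beta receptor marks pericytes and vascular smooth muscle. The A chain is made mainly by epithelium and the B chain mainly by endothelium.

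Values are read as FPKM, fragments per kilobase of a transcript with library size divided out. The deposited header leaves the unit unstated, so this reading rests on the values alone. Only on this reading can levels of different genes be set side by side. The PM2.5 libraries summed to 353805 to 373635 FPKM and the saline libraries to 345089 to 388125. The number of fragments behind a value is unknown, so no counting interval is given. Transcripts with a MERGE identifier, which has no position and no gene, held 17.6% to 20.6% of the FPKM of the PM2.5 libraries and 18.1% to 19.5% of that of the saline libraries. Fragments assigned to such transcripts are missing from the gene values given here. The lung epithelial genes *Sftpb*, *Sftpa1* and *Ager* averaged 1708, 338 and 363 FPKM in PM2.5 lungs and 1684, 343 and 401 FPKM in saline lungs, so the defining markers of the labelled tissue were present. *Sftpc* was uneven, at 6618, 588 and 1952 FPKM in PM2.5 lungs and 8108, 687 and 861 FPKM in saline lungs.

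The start regions of *Pdgfra* and *Pdgfa* are shown because transcripts of these genes in the table begin at different places. RefSeq (build GRCm38.p6) has promoter entries for 4 of the 6 genes, with 5 windows in all, each running from 250 bases before an annotated start to 50 bases after it. Capitals mark the GC box GGGCGG on either strand, a motif bound by Sp1-type factors.
Pdgfra, chr5:75152001-75152300, plus strand: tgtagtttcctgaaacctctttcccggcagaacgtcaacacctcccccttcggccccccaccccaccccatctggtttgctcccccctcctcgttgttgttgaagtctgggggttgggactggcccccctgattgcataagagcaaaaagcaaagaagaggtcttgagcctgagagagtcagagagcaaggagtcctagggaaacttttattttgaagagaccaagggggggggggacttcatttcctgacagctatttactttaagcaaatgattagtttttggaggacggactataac
Pdgfa upstream start, chr5:138994895-138995194, minus strand: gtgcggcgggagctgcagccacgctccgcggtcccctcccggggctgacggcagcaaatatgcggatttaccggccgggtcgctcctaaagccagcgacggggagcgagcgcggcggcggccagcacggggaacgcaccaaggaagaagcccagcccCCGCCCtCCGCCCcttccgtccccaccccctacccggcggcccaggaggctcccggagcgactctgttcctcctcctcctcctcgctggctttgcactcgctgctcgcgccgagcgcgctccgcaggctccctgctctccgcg
Pdgfa downstream start, chr5:138994232-138994531, minus strand: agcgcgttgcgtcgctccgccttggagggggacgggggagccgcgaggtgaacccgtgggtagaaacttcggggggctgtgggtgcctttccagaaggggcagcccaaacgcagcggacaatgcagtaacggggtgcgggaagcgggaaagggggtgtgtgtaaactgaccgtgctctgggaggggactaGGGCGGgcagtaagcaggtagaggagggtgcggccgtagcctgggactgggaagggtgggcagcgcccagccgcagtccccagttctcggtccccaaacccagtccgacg
The *Pdgfra* window had 51.0% G and C, 5 CpG dinucleotides and 0 GC boxes. The upstream *Pdgfa* window had 73.3% G and C, 37 CpG dinucleotides and 2 GC boxes, and the downstream one had 67.0%, 24 and 1. The median of all 32851 windows was 52.7% G and C and 7 CpG dinucleotides, and 35.7% of them held a GC box. The EGR1 letters GCGGGGGCG, the TATA letters TATAAA, the letters CCAAT and the AP-1 letters TGANTCA, searched on both strands, were in none of these 3 windows. They occur in 2.91%, 13.6%, 37.4% and 7.81% of all windows. The GC boxes overlap none of the other motifs.

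In PM2.5 lungs nearly all full-span *Pdgfra* signal stood on the transcript ENSMUST00000000476, and in saline lungs on ENSMUST00000168162, while the gene as a whole differed little. Both run almost to the same end of the gene on chromosome 5, plus strand. ENSMUST00000000476 (75152306 to 75198215) begins 55 bases after the RefSeq start whose window is printed above, and ENSMUST00000168162 (75155899 to 75198201) begins 3593 bases further on and ends 14 bases earlier. The shorter span covers 92.1% of the longer one. The table gives spans without exons, so the fragments that separate them cannot be located.

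ENSMUST00000000476 had 80.4, 104 and 84.9 FPKM in PM2.5 lungs, against 0.818, 0.558 and 0.680 FPKM in saline lungs. ENSMUST00000168162 had 0.105, 0.104 and 0.0913 FPKM in PM2.5 lungs, against 84.0, 79.1 and 91.5 FPKM in saline lungs. All 3 libraries of a group lay on the same side, and the groups were far from overlapping for either transcript. The ratio of the first to the second was 764, 996 and 929 in PM2.5 libraries, whereas in saline libraries the ratio of the second to the first was 103, 142 and 135. All denominators were under 1 FPKM with an unknown number of fragments, so the size of these ratios is uncertain. On the log2(FPKM + 0.5) scale the differences, PM2.5 minus saline, were 6.25 ± 0.15 and -7.15 ± 0.11 (SE). Added together, the pair had 80.5, 104 and 84.9 FPKM in PM2.5 lungs and 84.8, 79.7 and 92.2 FPKM in saline lungs, and these sums overlapped.

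**Figure D1:**
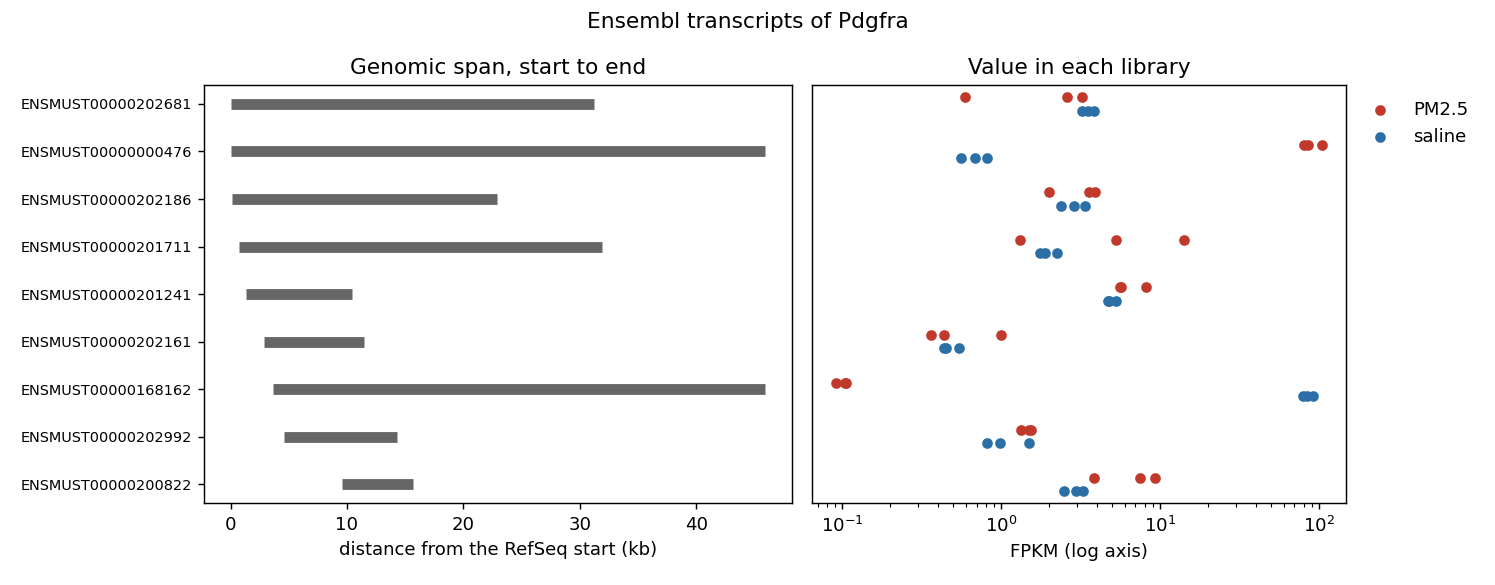
Genomic span of the 9 Ensembl transcripts of Pdgfra, in kb from the RefSeq start (left), and the FPKM of each transcript in each library on a log axis (right), with PM2.5 in red above saline in blue. The transcripts ENSMUST00000000476 and ENSMUST00000168162 trade places between the groups, near 90 FPKM in one and below 1 FPKM in the other.

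The other 7 *Pdgfra* transcripts are shorter and all had under 15 FPKM in every library. Their sum was 33.4, 18.0 and 31.3 FPKM in PM2.5 lungs and 17.8, 16.9 and 18.5 FPKM in saline lungs, so PM2.5 replicates 2 and 4 were higher and PM2.5 replicate 3 lay within the saline range. ENSMUST00000202681 and ENSMUST00000202186 begin within 100 bases of ENSMUST00000000476. Together they had 4.48, 4.60 and 6.77 FPKM in PM2.5 lungs and 5.90, 6.70 and 6.59 FPKM in saline lungs, which overlapped. By itself ENSMUST00000202681 was lower in PM2.5 lungs, at 0.592, 2.59 and 3.20 FPKM, against 3.51, 3.83 and 3.21 FPKM in saline lungs. Its groups narrowly did not overlap. Signal assigned to transcripts that begin near the start of ENSMUST00000000476 was thus listed in both groups. Fragments at the start itself were not examined. ENSMUST00000201711 was the most uneven, with 14.1, 1.31 and 5.31 FPKM in PM2.5 lungs and 2.23, 1.76 and 1.90 FPKM in saline lungs. ENSMUST00000200822, an internal transcript of 6104 bases of span, had 7.47, 3.85 and 9.24 FPKM in PM2.5 lungs and 2.95, 2.47 and 3.28 FPKM in saline lungs, without overlap. ENSMUST00000201241 had 5.61, 5.66 and 8.15 FPKM in PM2.5 lungs and 4.76, 4.70 and 5.25 FPKM in saline lungs, also without overlap.

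As a share of the summed FPKM of *Pdgfra*, ENSMUST00000000476 made up 70.6%, 85.2% and 73.0% in PM2.5 lungs and 0.797%, 0.578% and 0.614% in saline lungs. ENSMUST00000168162 made up 0.0924%, 0.0855% and 0.0785% in PM2.5 lungs and 81.9%, 81.9% and 82.6% in saline lungs. Summed over its transcripts, *Pdgfra* had 114, 122 and 116 FPKM in PM2.5 lungs and 103, 96.6 and 111 FPKM in saline lungs. The PM2.5 libraries were all above the saline ones, with a log2 difference of 0.19 ± 0.08 (SE, adjusted p = 0.467 with limma).

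Exchanges of the leading transcript between the groups were rare over the table. Among 10310 genes averaging 0.5 FPKM or more and having at least 2 Ensembl transcripts, 80 had the same leading transcript in all 3 libraries of each group but a different one between groups, or 0.776%. Only 6002 of the 10310 kept 1 leading transcript within each group, which this count requires. Within the PM2.5 libraries 69.5% of the genes did so, and within the saline libraries 69.7%. Of the 5 family genes with more than 1 transcript, only *Pdgfra* was among the 80. The mean share of ENSMUST00000168162 differed by 82.1 points between groups, which placed *Pdgfra* 4th when 10278 genes above 0 in every library were ranked by their single largest share difference. The median gene's largest difference was 7.15 points. *Pdgfra* had the second highest level of the 80, and of 401 genes with a mean of at least 50 FPKM 4 had a difference of at least 50 points (*Pdgfra*, *Ly6c1*, *Gsn* and *Pltp*, the last 3 named after their values were seen). *Pdgfra* was chosen for this exchange, so its rank is a description. In 5 of the 80 genes the leading transcripts ended within 100 bases of each other and began over 1000 bases apart, as in *Pdgfra*. In 30 of the 80 the gene sum differed by less than 0.25 on the log2 scale.

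**Figure D2:**
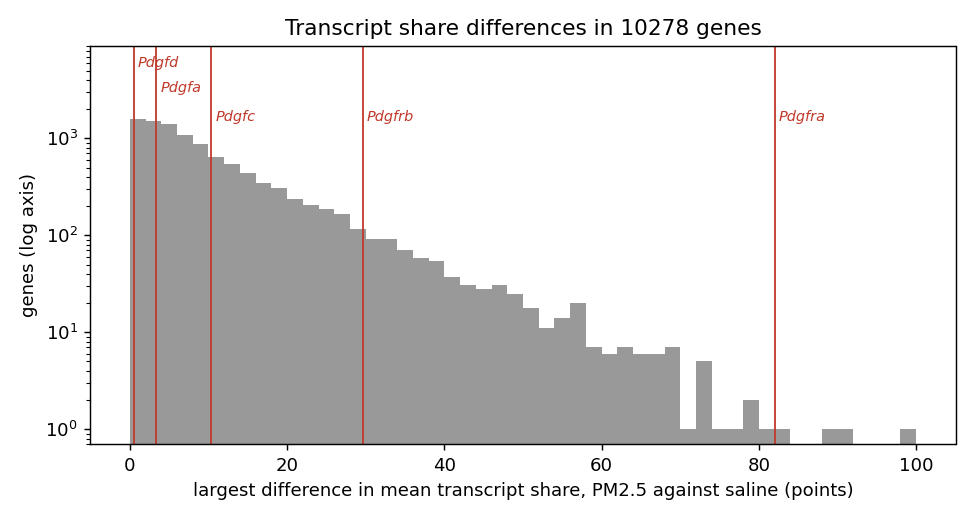
Largest difference between the PM2.5 and saline means in the share of any 1 transcript, in percentage points, for 10278 genes (bars, log axis), with the 5 PDGF genes of more than 1 transcript marked by red lines. Pdgfra lies at 82.1 points, and Pdgfrb, Pdgfc, Pdgfa and Pdgfd at 29.7, 10.4, 3.38 and 0.501 points.

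Nearly complete exchanges also occurred between libraries of a single group. *Pdgfrb* has 2 Ensembl transcripts on chromosome 18 (61045150 to 61085061, plus strand) whose starts lie 50 bases apart. ENSMUST00000115274 made up 5.30%, 95.7% and 5.94% of the gene in PM2.5 libraries and 7.20%, 91.0% and 97.8% in saline libraries. The exchange thus ran within each group and not between the groups. *Pdgfc* (chromosome 3, 81036416 to 81214040, plus strand) did likewise, with ENSMUST00000029652 at 0.376%, 87.7% and 93.2% in PM2.5 libraries and 24.4%, 93.0% and 95.0% in saline libraries. Replicate 2 was the low one in both groups. Over the 10278 genes, a share ranged by at least 80 points among the PM2.5 libraries in 352 genes (3.42%) and among the saline libraries in 291 genes (2.83%). For *Pdgfra* the largest range was 14.6 points among PM2.5 libraries and 1.07 points among saline libraries. How fragments were divided between transcripts of near-identical span is not given in the sources used here, and its part in these shares was not tested.

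**Figure D3:**
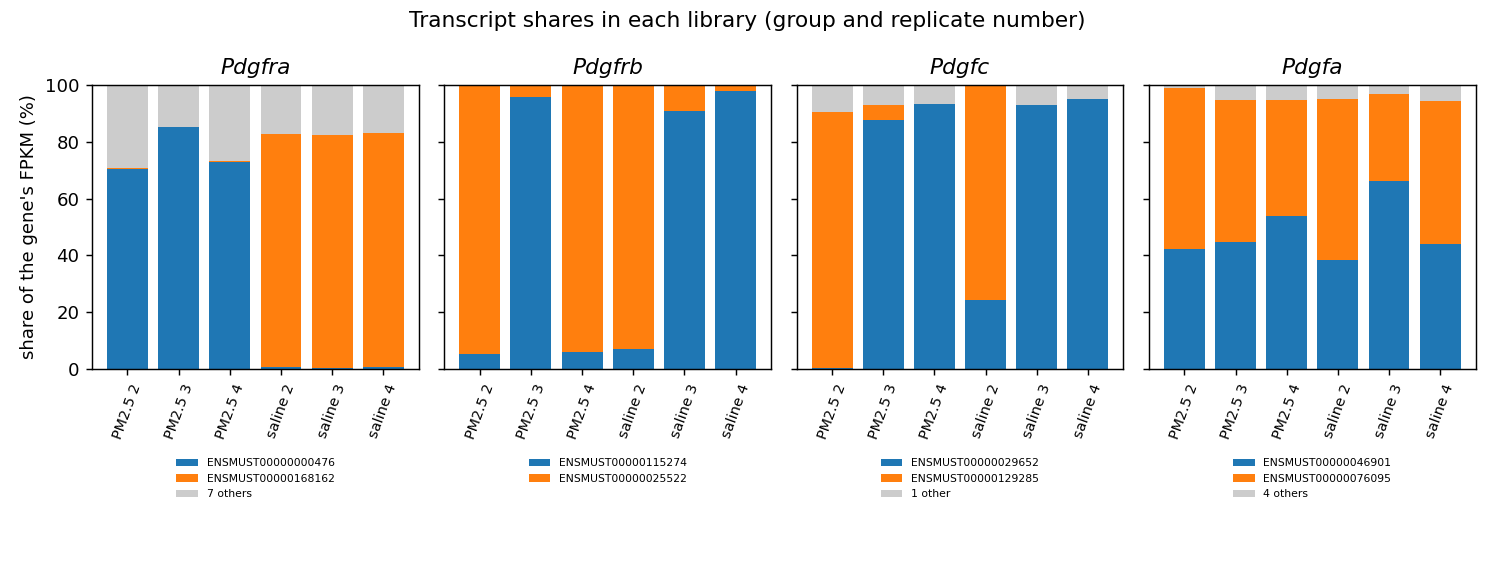
Share of each gene's summed FPKM, in percent, held by its 2 leading transcripts (colours) and by the rest (grey) in each library, with the PM2.5 libraries left of the saline ones. The leading transcript of Pdgfra differs between the groups, those of Pdgfrb and Pdgfc differ between libraries of the same group, and Pdgfa is divided between 2 transcripts in every library.

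As a gene, *Pdgfrb* had 0.501, 0.592 and 0.577 FPKM in PM2.5 lungs and 0.419, 0.720 and 0.499 FPKM in saline lungs, which overlapped (log2 difference 0.02 ± 0.17, SE). This was the lowest level of the family, and rank 14674 of 22158 genes by mean. Markers of pericytes, the cells that carry this receptor, all averaged more FPKM. The lowest of the 12 were *Higd1b*, *Kcnj8* and *Rgs5*, at 1.32, 2.62 and 3.03 FPKM in PM2.5 lungs and 2.60, 2.73 and 2.83 FPKM in saline lungs, and the highest were *Gucy1a3* and *Mcam*, at 80.7 and 79.7 FPKM in PM2.5 lungs and 88.2 and 84.5 FPKM in saline lungs. All 12 markers of the pericyte list were found and none was listed at 0, and their sum was 229 to 254 FPKM in PM2.5 libraries and 254 to 272 FPKM in saline libraries. Whether *Pdgfrb* fragments were assigned to MERGE transcripts was not tested. The noncoding transcript NONMMUT032559.2 lies on the same strand at the start of the gene (61045158 to 61045644) and had 0.714, 1.75 and 0.872 FPKM in PM2.5 lungs and 0.887, 0.722 and 0.416 FPKM in saline lungs. With it added, the log2 difference of *Pdgfrb* was 0.31.

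Among the ligands *Pdgfb* was highest, followed by *Pdgfa*, *Pdgfd* and *Pdgfc*. *Pdgfb* (chromosome 15, 79995900 to 80014808, minus strand) has 1 Ensembl transcript in the table, with 26.7, 33.1 and 27.9 FPKM in PM2.5 lungs and 37.7, 31.6 and 37.6 FPKM in saline lungs. The groups overlapped through PM2.5 replicate 3 and saline replicate 3, and the log2 difference was -0.28 ± 0.12 (SE). Endothelial cells are a main source of the B chain. The 7 endothelial markers, none listed at 0, summed to 777 to 849 FPKM in PM2.5 libraries and 895 to 964 FPKM in saline libraries. *Cldn5*, a tight junction gene among them, averaged 98.1 ± 8.33 FPKM in PM2.5 lungs and 215 ± 47.3 FPKM in saline lungs (SD, n = 3 each). *Egfl7* averaged 105 ± 8.18 FPKM in PM2.5 lungs and 88.0 ± 22.3 FPKM in saline lungs, and *Cdh5* averaged 207 ± 13.8 FPKM in PM2.5 lungs and 223 ± 9.65 FPKM in saline lungs. Without *Cldn5* the other 6 markers summed to 679 to 759 FPKM in PM2.5 libraries and 707 to 735 FPKM in saline libraries, which overlapped. The list had a median log2 difference of -0.02, none of its genes passed the threshold, and the part of these cells in the *Pdgfb* level was not tested. In whole tissue, fewer cells of a type and less RNA per cell cannot be told apart. Of the 6 platelet markers, which matter because platelets store PDGF, the sum was 14.3 to 17.3 FPKM in PM2.5 libraries and 15.3 to 19.3 FPKM in saline libraries, with *Gp1bb* listed at 0 in at least 1 library.

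*Pdgfa* (chromosome 5, 138976014 to 138996087, minus strand) had 9.83, 10.9 and 11.2 FPKM in PM2.5 lungs and 13.4, 14.8 and 13.5 FPKM in saline lungs. All PM2.5 libraries were below all saline ones, with a log2 difference of -0.37 ± 0.09 (SE, adjusted p = 0.257 with limma). Of its 6 transcripts, ENSMUST00000046901 and ENSMUST00000076095 begin within 100 bases of the upstream start shown above. They summed to 9.71, 10.4 and 10.6 FPKM in PM2.5 lungs and 12.7, 14.3 and 12.8 FPKM in saline lungs. ENSMUST00000144934, which begins at the downstream start 663 bases away, was listed at 0 in PM2.5 replicate 2 and had 0.574 and 0.596 FPKM in PM2.5 replicates 3 and 4, against 0.405, 0.312 and 0.517 FPKM in saline lungs. Transcripts that begin near the start with 37 CpG dinucleotides thus held nearly all FPKM assigned to *Pdgfa* in every library. Fragments at the starts themselves were not examined. ENSMUST00000046901 made up 42.3%, 44.7% and 53.9% of the gene in PM2.5 lungs and 38.5%, 66.3% and 44.2% in saline lungs, which overlapped. Epithelium, a main source of the A chain, had 3 of 7 tested markers lower at an unadjusted p under 0.05 and 0 called with limma. Over all 14865 genes tested, 1163 were lower by that count. *Scgb1a1*, a club cell secretory protein, averaged 4045 ± 1293 FPKM in PM2.5 lungs and 7282 ± 859 FPKM in saline lungs, *Hopx* 2.24 ± 0.666 and 4.10 ± 0.796 and *Pdpn* 38.8 ± 2.25 and 45.7 ± 3.26 (SD, n = 3 each), each without overlap. These 3 were named for the lowest p of the list, so their lack of overlap is a description. None of the 7 was listed at 0, and they summed to 7956 to 11487 FPKM in PM2.5 libraries and 9776 to 18545 FPKM in saline libraries. The part of these cells in the *Pdgfa* level was not tested.

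*Pdgfd* (chromosome 9, 6168612 to 6378843, plus strand) had 4.67, 5.09 and 4.51 FPKM in PM2.5 lungs and 3.61, 3.91 and 4.06 FPKM in saline lungs. The PM2.5 libraries were all above the saline ones, with a log2 difference of 0.27 ± 0.10 (SE, adjusted p = 0.410 with limma). ENSMUST00000058692 held 97.4% to 99.5% of it over the 6 libraries. The noncoding transcripts NONMMUT067931.2, NONMMUT067930.2 and NONMMUT067929.2 lie within the gene on its strand and averaged 1.64, 1.39 and 1.49 FPKM in PM2.5 lungs and 1.88, 1.48 and 1.33 FPKM in saline lungs. With them added, the log2 difference of *Pdgfd* was 0.11. *Pdgfc* had 0.907, 0.877 and 0.704 FPKM in PM2.5 lungs and 0.843, 1.24 and 0.769 FPKM in saline lungs, which overlapped (log2 difference -0.11 ± 0.18, SE). The 4 ligands together had 42.1, 50.0 and 44.3 FPKM in PM2.5 lungs and 55.5, 51.6 and 56.0 FPKM in saline lungs, without overlap. *Pdgfb* made up 63.4%, 66.2% and 62.9% of that sum in PM2.5 lungs and 67.9%, 61.3% and 67.2% in saline lungs. How many of all genes lack overlap between the groups was not counted, so nothing is read from such separations.

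The order of levels was the same in both groups, from *Pdgfra* through *Pdgfb*, *Pdgfa*, *Pdgfd* and *Pdgfc* to *Pdgfrb*. With same-strand noncoding transcripts added, *Pdgfrb* stood above *Pdgfc* by mean in both groups, at 1.67 ± 0.592 against 0.976 ± 0.189 FPKM in PM2.5 lungs and 1.22 ± 0.274 against 1.06 ± 0.242 FPKM in saline lungs (SD, n = 3 each), and the other places were kept. In saline libraries these sums overlapped, at 0.914 to 1.44 FPKM for *Pdgfrb* and 0.849 to 1.32 FPKM for *Pdgfc*. In the Ensembl sums no neighbours overlapped within a group, and the closest were *Pdgfc* and *Pdgfrb*, whose means differed 1.49-fold in PM2.5 lungs and 1.74-fold in saline lungs. *Pdgfra* ranked 207th of 22158 genes by mean FPKM and was 201 to 227 times *Pdgfrb* in PM2.5 libraries and 134 to 245 times in saline libraries.

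**Figure D4:**
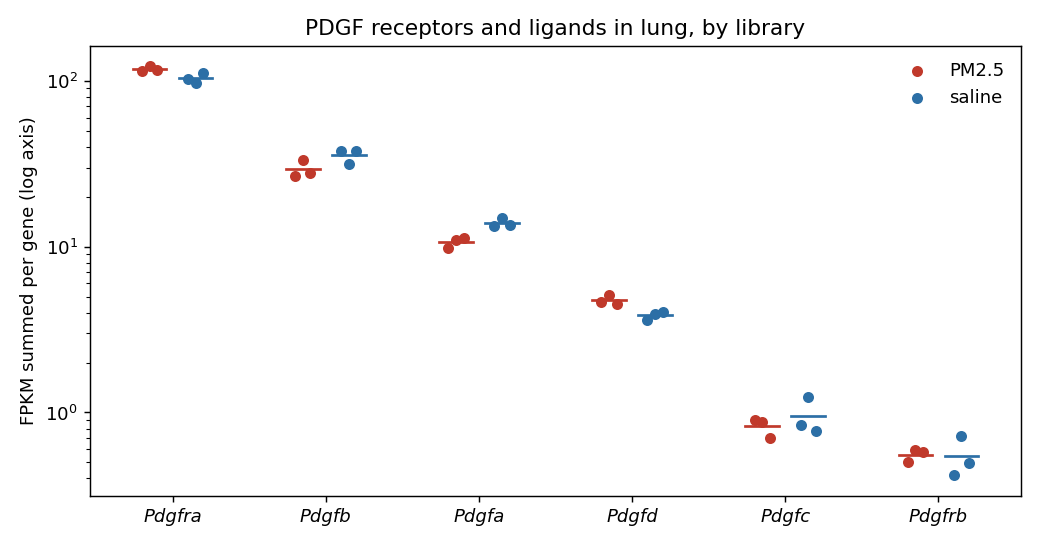
Summed FPKM of the 6 PDGF genes in each library on a log axis, with PM2.5 (red) left of saline (blue) and a bar at each mean of 3 libraries. The genes span from about 0.5 FPKM for Pdgfrb to over 100 FPKM for Pdgfra, in the same order in both groups for these Ensembl sums. Pdgfra, Pdgfa and Pdgfd show no overlap between groups, but 0 of the 6 genes were called. The share of all genes without such overlap was not counted.

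In the fit over all genes with limma, 0 of the 6 family genes were called at an adjusted p under 0.05, and 2 had an unadjusted p under 0.05 (*Pdgfd* higher, *Pdgfa* lower). The filter, an average of 0.5 FPKM or more, let all 6 through. Over the 14865 genes tested, 14 or 0.0942% were called. An unadjusted p under 0.05 was reached by 1707 of them, 544 higher and 1163 lower. In the fit over all transcripts, 14 of the 23 family transcripts passed the filter, and 1 was called higher (ENSMUST00000000476) and 1 lower (ENSMUST00000168162), against 92 or 0.152% of 60525 transcripts tested. Of the 9 transcripts left out, 2 belong to *Pdgfrb*, 4 to *Pdgfa*, 2 to *Pdgfc* and 1 to *Pdgfd*. The family was chosen on this contrast, so nothing is read from these counts. Besides *Pdgfra*, 3 genes had called transcripts in opposite directions, *Brd3*, *Caprin1* and *Irf8*, named after their values were seen.

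For each family gene, the 3 tested genes with the most similar log2 values over the 6 libraries were listed as a description. Other family genes and genes with predicted-gene symbols (Gm or Rik) were left out first. For *Pdgfra* they were *Rnaset2b*, *Klhl33* and *Papola* (Pearson r of 0.998, 0.993 and 0.987). For *Pdgfa* they were *Trip11*, *Efnb2* and *B3gnt9* (0.997, 0.991 and 0.990), and for *Pdgfb* *Kif23*, *Sema3g* and *Pttg1* (0.990, 0.981 and 0.979). For *Pdgfd* they were *Cbr2*, *Cyp2b10* and *Rab3gap1* (0.994, 0.993 and 0.992). For *Pdgfc* they were *Cds1*, *Tnrc6b* and *Lrp11* (0.997, 0.983 and 0.980), and for *Pdgfrb* *Eif3j1*, *Arhgef7* and *AK010878* (0.997, 0.982 and 0.972). The libraries are few and shared, and the best of so many tested genes is high over 6 points whatever the gene.

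*Chic2*, *Kit* and *Kdr*, genes near *Pdgfra* on chromosome 5, each overlapped between the groups. *Chic2*, the nearest tested gene before it, averaged 6.36 ± 1.01 FPKM in PM2.5 lungs and 6.61 ± 1.36 FPKM in saline lungs. *Kit*, the nearest tested gene after it and the receptor for stem cell factor, averaged 55.8 ± 8.60 FPKM in PM2.5 lungs and 61.4 ± 7.34 FPKM in saline lungs (SD, n = 3 each). *Kdr*, a VEGF receptor gene further on, averaged 102 ± 15.3 FPKM in PM2.5 lungs and 109 ± 1.83 FPKM in saline lungs. The predicted gene *Gm42803* overlaps *Pdgfra* on the other strand, which the library kit does not separate, and had at most 0.126 FPKM in any library.

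Of the genes that act around the PDGF receptors, 1 passed the threshold. *Cbl*, the ubiquitin ligase that marks activated PDGF receptors for degradation, rose to 16.6, 16.6 and 17.9 FPKM in PM2.5 lungs, against 4.41, 4.66 and 3.76 FPKM in saline lungs. Its log2 difference was 1.88 ± 0.10 (SE, adjusted p = 0.00876 with limma), and the groups did not overlap. Its leading transcript also differed between the groups, with a largest share difference of 63.0 points. Without PM2.5 replicate 4 its adjusted p with limma was 0.0594, over alternatives that ranged from 0.00603 to 0.142. *Cbl* was the 1 called of 16 tested inhibitor genes, and this list had a median log2 difference of 0.03, against -0.03 over all genes tested. *Spry1*, which restrains the Ras pathway, averaged 17.6 ± 1.65 FPKM in PM2.5 lungs and 32.0 ± 10.0 FPKM in saline lungs. *Spred1*, a related inhibitor, averaged 6.66 ± 3.53 FPKM in PM2.5 lungs and 2.78 ± 0.411 FPKM in saline lungs (SD, n = 3 each), and neither passed. The relative *Cblb* was listed at 0 in PM2.5 replicates 3 and 4 and had 7.90 FPKM in PM2.5 replicate 2, against 0.0443, 0.0395 and 8.29 FPKM in saline lungs.

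Among 33 adaptor and effector genes limma called 0, and at an unadjusted p under 0.05 there were 2 higher and 3 lower (5 in all), with a median log2 difference of -0.01. All 14865 genes tested gave 544 higher and 1163 lower by that count. *Pik3r2*, a regulatory subunit of phosphoinositide 3-kinase, had 10.5, 10.8 and 11.7 FPKM in PM2.5 lungs and 14.3, 14.9 and 13.9 FPKM in saline lungs. The adaptor *Nck1* averaged 6.94 ± 0.703 FPKM in PM2.5 lungs and 9.27 ± 0.532 FPKM in saline lungs (SD, n = 3 each), and the Ras exchange factor *Sos2* averaged 19.1 ± 0.425 FPKM in PM2.5 lungs and 16.0 ± 0.607 FPKM in saline lungs. None of these 3 overlapped between groups, but they were named for the lowest p of the list, so this is a description.

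Among 10 tested genes that process or bind the ligands limma called 0, an unadjusted p under 0.05 was reached by 1, and 2 had a positive log2 difference, with a median of -0.08. Of all 14865 genes tested, 1707 reached such a p. *Sparc*, a matrix protein that binds PDGF, averaged 289 ± 22.6 FPKM in PM2.5 lungs and 354 ± 30.7 FPKM in saline lungs (SD, n = 3 each). *Furin*, which cleaves PDGF precursors, averaged 23.2 ± 5.41 FPKM in PM2.5 lungs and 29.1 ± 4.87 FPKM in saline lungs. *Nrp1*, which can act as a coreceptor, was uneven in saline lungs, with 51.2, 44.1 and 58.1 FPKM in PM2.5 lungs and 31.7, 11.6 and 59.6 FPKM in saline lungs.

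Among 12 tested early target genes of growth factor signalling limma called 0, and 5 were lower at an unadjusted p under 0.05, with a median log2 difference of -0.59. By the same count 1163 of all 14865 genes tested were lower, and the median over all genes was -0.03. *Klf4* averaged 17.9 ± 2.26 FPKM in PM2.5 lungs and 34.5 ± 3.75 FPKM in saline lungs, *Ier2* 12.5 ± 2.80 and 25.2 ± 3.13 and *Junb* 6.12 ± 2.12 and 17.3 ± 3.69 (SD, n = 3 each). Many stimuli other than PDGF act on these genes. Of 15 genes for related receptors and ligands limma called 0, and *Vegfb* alone reached an unadjusted p under 0.05 (1 gene). It had 6.04, 5.54 and 5.74 FPKM in PM2.5 lungs and 9.81, 9.22 and 6.92 FPKM in saline lungs, and its leading transcript also differed between the groups. *Vegfa* averaged 62.4 ± 8.35 and 78.9 ± 10.5 FPKM, and the VEGF receptor gene *Flt1* 47.6 ± 1.56 and 34.4 ± 10.6 FPKM, in PM2.5 and saline lungs.

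Markers of the cells that carry the alpha receptor did not pass either. Of 12 alveolar fibroblast markers limma called 0, 3 were lower at an unadjusted p under 0.05, and 2 had a positive log2 difference, with a median of -0.20. Of all 14865 genes tested, 1163 were lower by that count. *Wnt2* averaged 6.56 ± 1.26 FPKM in PM2.5 lungs and 9.50 ± 0.924 FPKM in saline lungs, *Npnt* 66.1 ± 7.21 and 85.9 ± 8.98 and *Slc7a10* 3.86 ± 0.544 and 6.01 ± 1.45 (SD, n = 3 each). None was listed at 0, and the list summed to 1591 to 1828 FPKM in PM2.5 libraries and 1584 to 1921 FPKM in saline libraries. *Pdgfra* itself had a log2 difference of 0.19 and was not called, and the part of cell numbers in its level was not tested.

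Of 9 adventitial fibroblast markers 2 had an unadjusted p under 0.05, both lower, and of 9 myofibroblast and smooth muscle markers 0 did, with medians of -0.19 each. *Col14a1* averaged 5.40 ± 0.799 FPKM in PM2.5 lungs and 7.27 ± 0.797 FPKM in saline lungs, *Cd34* 47.4 ± 2.19 and 58.1 ± 7.54 and *Clec3b* 0.468 ± 0.592 and 1.18 ± 0.130 (SD, n = 3 each). *Lgr6* averaged 2.89 ± 1.76 FPKM in PM2.5 lungs and 4.03 ± 1.35 FPKM in saline lungs, the contractile gene *Tagln* 49.3 ± 16.0 and 57.1 ± 5.55 (SD, n = 3 each). *Hhip* had 13.6, 10.8 and 11.3 FPKM in PM2.5 lungs and 11.7, 9.55 and 11.8 FPKM in saline lungs. The pericyte list had a median of -0.10, and its member *Ndufa4l2* had 8.19, 7.84 and 7.10 FPKM in PM2.5 lungs and 14.7, 14.4 and 12.9 FPKM in saline lungs (adjusted p = 0.0808 with limma). *Higd1b* averaged 1.32 ± 0.730 FPKM in PM2.5 lungs and 2.60 ± 0.733 FPKM in saline lungs, and *Lamc3* 5.69 ± 0.455 and 4.66 ± 0.601 (SD, n = 3 each). In these 3 lists limma called 0 genes, and an unadjusted p under 0.05 was reached by 3, against 1707 of all 14865 genes tested.

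Over all 15 lists, 1 of 160 distinct genes tested passed, against 14 of all 14865 genes (0.0942%). An unadjusted p under 0.05 was reached by 30 of them, of which 6 were higher and 24 lower. Over all 14865 genes 544 were higher and 1163 lower by that count. Cardiac muscle markers, from tissue that can be taken with the lung, summed to 14.7 to 190.0 FPKM in PM2.5 libraries and 119 to 276 FPKM in saline libraries, with *Nppa* listed at 0 in at least 1 library. Mesothelial markers summed to 12.3 to 17.1 FPKM in PM2.5 libraries and 6.88 to 10.0 FPKM in saline libraries. Macrophage markers summed to 68.4 to 97.3 FPKM in PM2.5 libraries and 66.8 to 84.3 FPKM in saline libraries. The part of these cells in the PDGF values was not tested.

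**Figure D5:**
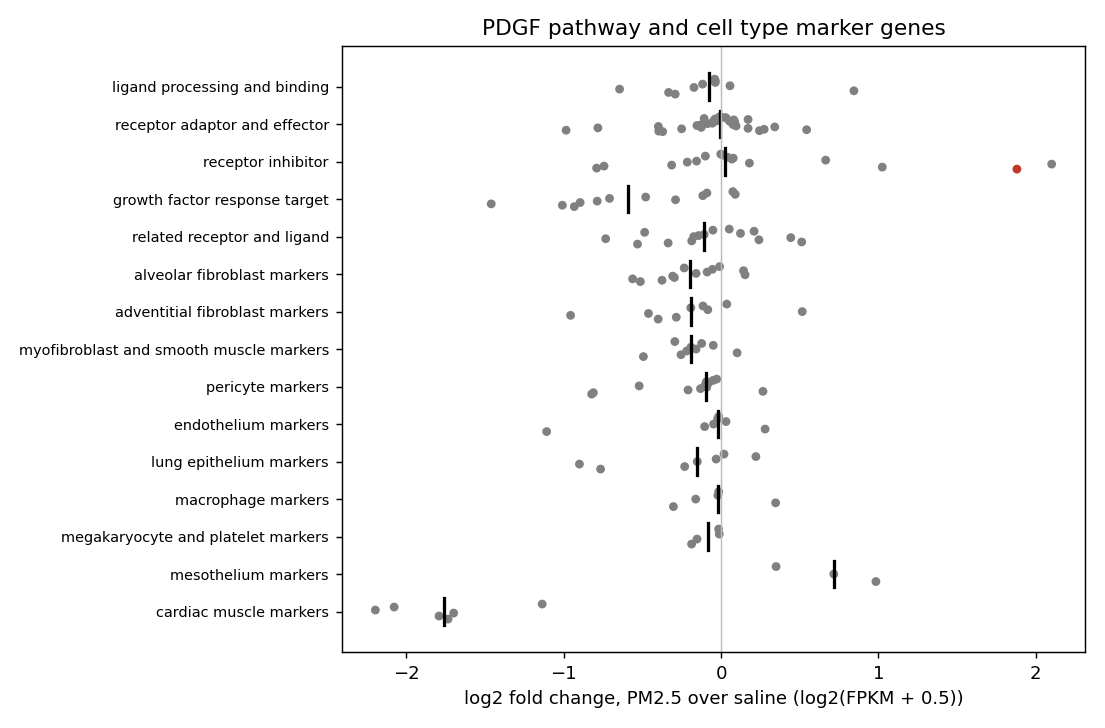
Log2 difference of each tested gene, PM2.5 over saline on the log2(FPKM + 0.5) scale, for 5 lists of PDGF pathway genes and 10 lists of cell type markers, with a black bar at each median. The 1 called gene, Cbl, is in red at 1.88; the early growth factor targets lie mostly to the left, with a median of -0.59.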

How the data were processed

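The table the authors deposited holds 1 value per transcript in each of 6 libraries, 3 from PM2.5 lungs and 3 from saline lungs, read here as FPKM. Its header leaves the unit unstated, so this reading rests on the values alone. The tools bcl2fastq and HISAT2 and the build mm10 are named in the submitters' processing notes; the sources used here name no version, quantifier or annotation. Per the labels' protocols, 2 µg of Trizol RNA entered the NEBNext Ultra kit, which does not keep strand.

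FPKM of Ensembl transcripts were summed per symbol. Genes averaging 0.5 FPKM or more, and separately transcripts, were put through limma 3.58.1 (R 4.3.3) on the log2(FPKM + 0.5) scale (mean trend, 2-sided, Benjamini-Hochberg over all features, threshold 0.05). Fold changes on this scale understate those of low genes. Shares are a transcript's percent of its gene's summed FPKM. The leading transcript is the one with the largest value. Of 169 list names 168 were found.

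The family, its lists and the tests were chosen with earlier results of these data known. The text names every family member, the 3 list genes of lowest p (or any called), the 3 most similar genes per member, and noncoding transcripts with at least 50% of their span within a member on its strand and an average of 0.5 FPKM or more. *Kcnj8*, *Rgs5*, *Gucy1a3*, *Mcam*, *Cblb*, *Ager* and the surfactant genes were named outside this rule, with their values known. From 4 lists (macrophage, platelet, mesothelium, cardiac muscle) only sums or defining markers are named. Same-numbered libraries of the groups deviated from their group means with correlations of -0.03, -0.03 and 0.05, so the numbers were not taken as pairs. Alternatives were other pseudocounts, filters, scalings, moderation and weights, each library left out, a replicate block and sums with noncoding transcripts.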

Additional observations from a re-analysis of the deposited data

How the results depend on the processing

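The family genes called stayed at 0 in all 16 alternatives, and *Pdgfra*, *Pdgfa*, *Pdgfb* and *Pdgfd* kept their sign in all 16. *Pdgfrb* ranged from -0.06 to 0.31 on the log2 scale and *Pdgfc* from -0.20 to 0.02 over 15 alternatives, both crossing 0. The called family transcripts stayed at 2 in 14 of 15 alternatives and were 1 with the replicate block, where ENSMUST00000000476 had an adjusted p of 0.0668 with limma against 0.000188 without it; the cause was not tested. The list genes called were 0 to 1 with a library left out (0 without PM2.5 replicate 4) and 0 with the replicate block, where *Cbl* had an adjusted p of 0.142 with limma. Weighting FPKM by span moved the share of ENSMUST00000000476 to 89.3% in PM2.5 and 0.799% in saline lungs, and that of ENSMUST00000168162 to 0.0926% and 91.2%, which follows from their long spans. Over all genes, the 14 called became 1 with the replicate block, 9 with a filter at 2 FPKM and 5 to 26 with a library left out, and the 92 called transcripts became 5 with the block and 127 to 184 with a library left out. The unknown depth limits what can be said of values under 1 FPKM.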
